A study of Mus musculus with 6 samples.

Results

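The Siglec sialic-acid receptors are described here through 7 mouse genes, Siglec1, Siglece, Siglecf, Siglecg, Siglech, Cd22 and Cd33. They were picked by membership of the family, with earlier results of these data known, out of 49585 genes in the count tables. RNA of microglia, the resident macrophages of the brain, was sequenced from 3 wild-type mice (WT) and 3 mice labelled IRF8KO, which stands for loss of the transcription factor IRF8; the labels do not give the allele, a promoter or a Cre driver, and name no treatment. All 6 libraries came from males aged 3 months, each from its own brain, after isolation without enzymes and flow sorting into TRIzol. The libraries were made from polyadenylated RNA with a template-switching low-input kit that keeps no strand information and no molecular identifiers. All 7 genes passed the filter on low counts and were among the 11041 genes tested. Siglecg, at 0 counts in IRF8KO, and Siglecf, at 5 counts in IRF8KO replicate 1, passed only through WT.

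Siglecs are membrane receptors of the immunoglobulin superfamily that bind sialic acids, the acidic sugars that end many glycan chains on cell surfaces. Several of them, such as Cd22, Siglece, Siglecf and Siglecg, inhibit the cell that carries them by recruiting the phosphatases encoded by Ptpn6 and Ptpn11 to tyrosines in the cytoplasmic tail. Siglech lacks such a tail and pairs with the adaptor encoded by Tyrobp, while Siglec1 (sialoadhesin, CD169) is a long adhesion receptor of macrophages. In the brain, Siglech is used as a microglial marker, Siglec1 marks macrophages of the brain's borders and rises with interferon, and CD33 is a risk gene of Alzheimer's disease in people.

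Of the 7 genes, 2 rose in IRF8KO (Siglec1 and Siglece), 3 fell (Siglecg, Siglecf and Cd22) and 2 did not pass the test (Siglech and Cd33). The test was edgeR's quasi-likelihood F test with Benjamini-Hochberg adjustment over all tested genes at 0.05, which called 19.1% of all tested genes, 9.64% as higher and 9.46% as lower. For 6 of the 7 genes, every library of one genotype lay on one side of every library of the other, against 37.9% of all tested genes. Siglec1 and Siglecg kept their calls in each of the 6 fits that left out 1 library, while the calls of Siglece, Siglecf and Cd22 were each lost in at least 4 of those fits. The median log2 fold change of the 7 genes was −0.27, and that of all tested genes −0.11.

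The genes lie in 4 places of the genome, and 6 of them are on chromosome 7. Siglecf (ENSMUSG00000039013, 43351341 to 43359531, plus strand), Siglecg (ENSMUSG00000030468, 43408204 to 43418358, plus), Cd33 (ENSMUSG00000004609, 43524216 to 43544428, minus) and Siglece (ENSMUSG00000030474, 43651070 to 43660161, minus) form a cluster of 308.8 kb on chromosome 7. Cd22 (ENSMUSG00000030577, 30865402 to 30880342, minus) lies 18.8 kb from Mag, another Siglec gene, and Siglech (ENSMUSG00000051504, 55768178 to 55778925, plus) stands apart on the same chromosome. Siglec1 (ENSMUSG00000027322, 131069220 to 131086765, minus) is on chromosome 2. Coordinates are those of GENCODE release M21 (GRCm38, the assembly also called mm10).

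The upstream sequences of the 4 cluster genes are shown because 2 of them share a run of bases while their transcripts did not change alike. They were taken from RefSeq's GRCm38.p6 promoter windows, which matched 6 of the 7 genes, and each is written 5′ to 3′ on the gene's own strand, upstream of the RefSeq start and without bases in GENCODE exons of the same gene. The RefSeq start of Cd33 is also the start of a GENCODE transcript but lies inside the longer GENCODE gene, so the Cd33 stretch is internal to that gene. Capitals mark the 16 bases common to Siglecf and Cd33.
Siglecf (chr7:43351091-43351340, plus strand): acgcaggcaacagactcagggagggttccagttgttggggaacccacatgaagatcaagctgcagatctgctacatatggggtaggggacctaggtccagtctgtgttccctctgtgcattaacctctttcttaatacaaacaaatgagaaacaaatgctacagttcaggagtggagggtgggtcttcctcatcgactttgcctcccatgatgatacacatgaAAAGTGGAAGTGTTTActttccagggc
Siglecg (chr7:43407989-43408203, plus strand): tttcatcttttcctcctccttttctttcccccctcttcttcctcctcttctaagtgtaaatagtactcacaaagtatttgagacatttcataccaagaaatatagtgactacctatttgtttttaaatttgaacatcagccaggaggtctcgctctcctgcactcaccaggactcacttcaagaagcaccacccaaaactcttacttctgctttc
Cd33 (chr7:43533172-43533364, minus strand): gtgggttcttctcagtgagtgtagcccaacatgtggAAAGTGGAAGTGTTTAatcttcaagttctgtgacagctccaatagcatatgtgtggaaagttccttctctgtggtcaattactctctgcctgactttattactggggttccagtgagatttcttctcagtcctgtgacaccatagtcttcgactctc
Siglece (chr7:43660162-43660411, minus strand): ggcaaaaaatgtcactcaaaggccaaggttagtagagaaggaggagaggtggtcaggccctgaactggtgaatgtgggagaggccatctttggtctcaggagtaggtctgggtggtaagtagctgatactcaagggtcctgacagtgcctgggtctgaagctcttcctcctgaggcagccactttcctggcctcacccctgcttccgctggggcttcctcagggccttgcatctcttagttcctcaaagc

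The run in capitals, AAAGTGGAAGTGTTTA, begins 27 bases before the RefSeq start of Siglecf and 157 bases before that of Cd33, and it was found in 2 of the 32851 promoter windows of 300 bases. Over the other pairs of the 6 genes, the longest common run in the 250 bases upstream, read on the same strand, was between 7 and 10 bases. The run holds the ETS core GGAAGTG (searched on both strands), which 3615 of the 32851 windows hold and which the windows of Siglecf, Cd33 and Siglech hold among the 6 genes. The interferon-response core GAAANNGAA was found in 8.56% of all 300-base windows and in none of those of the 6 genes, which have the same length, and the ETS-IRF composite GGAANNGAA in 8.24% of all windows and, of the 6, in that of Cd22, whose RefSeq start, like that of Cd33, lies inside the longer GENCODE gene; both were searched on both strands. Longer forms of both, with a further A at the 3′ end, had been searched first; they were found in 3.44% and 2.72% of all windows and in none of those of the 6 genes, so the match of Cd22 depends on the shorter form. These letters were searched with the expression values known, and a match is only a description of the window.

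Depth ran from 3658917 to 11098363 gene counts per library. Levels are given as CPM, gene counts relative to a library size scaled by the trimmed mean of M-values (TMM); TMM was used because Apoe alone took 25.5% to 33.7% of the counts in IRF8KO and at most 0.324% in WT. Irf8 itself was counted in all libraries, with 4084 to 12022 counts in WT and 4628 to 7834 in IRF8KO, and was not called (edgeR adjusted p = 0.368), so every direction rests on the labels. Pearson correlations of log2 CPM across genes, which are not independent replicates, were 0.892 to 0.969 within WT, 0.926 to 0.943 within IRF8KO and 0.752 to 0.842 between them; WT replicate 3 was the WT library that stood apart. Of 10 microglial markers, all passed the filter, 1 rose (Fcrls) and 5 fell, with Sall1 at 0 counts in all IRF8KO libraries. Their summed level was 41090 to 67902 CPM in WT and 31903 to 44998 CPM in IRF8KO. Values are of bulk RNA, in which fewer cells of a type and less RNA per cell cannot be told apart.

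**Figure D1:**
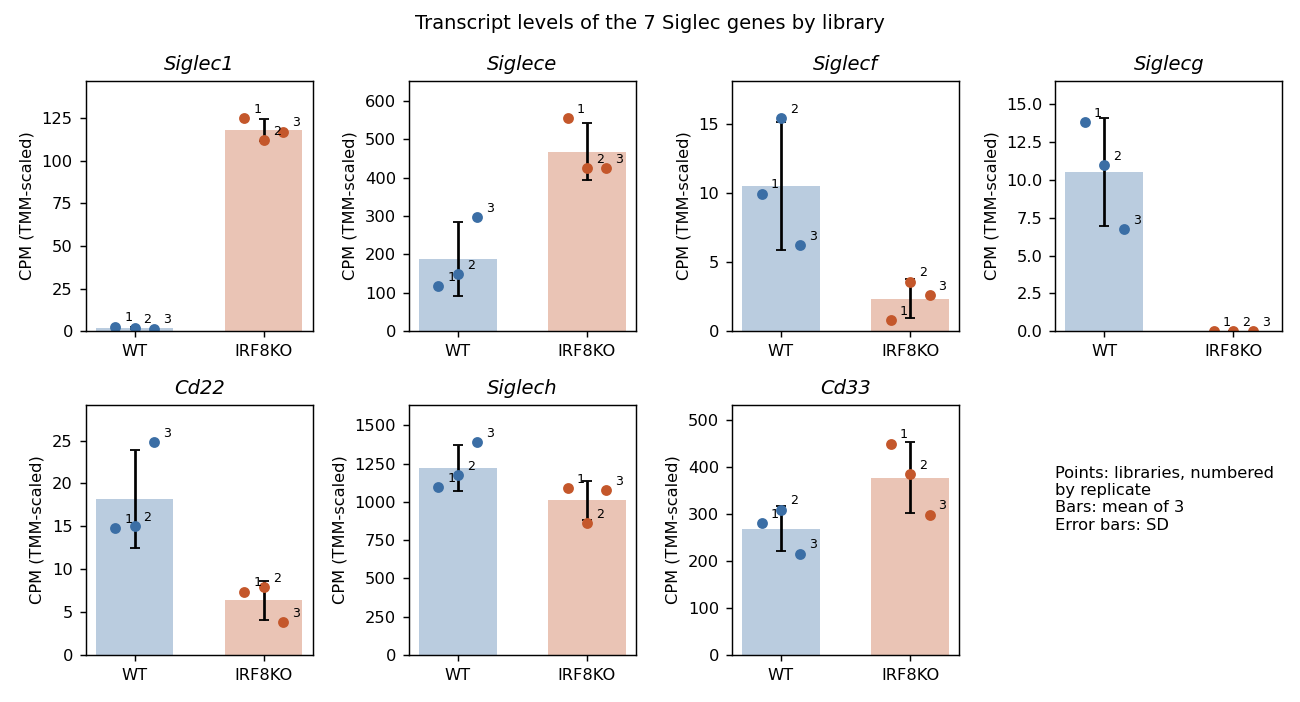
TMM-scaled CPM (linear axes from 0) of each Siglec gene in WT and IRF8KO; points are libraries numbered by replicate, bars the mean of 3 and error bars the SD. Siglec1 lies between 112 and 125 CPM in IRF8KO and at most at 2.72 CPM in WT, and Siglecg is at 0 in all IRF8KO libraries.

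Siglec1, the macrophage adhesion receptor, had 14, 27 and 10 counts in WT replicates 1, 2 and 3 and 777, 1247 and 1079 counts in IRF8KO replicates 1, 2 and 3. In CPM these were 2.72, 1.91 and 1.38 in WT and 124.7, 111.9 and 117.0 in IRF8KO. All IRF8KO libraries were far above all WT libraries, and the IRF8KO libraries were close to each other. Mean levels (± SD, n = 3) of 2.005 ± 0.677 CPM in WT and 118 ± 6.45 in IRF8KO gave a log2 fold change of 5.90, with an SE of 0.36 and an edgeR adjusted p of 1.8e-06. Over the fits without 1 library it lay between 5.77 and 6.11.

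Siglec1 is expressed by border-associated macrophages and induced by interferon, so both lists are given beside it. Of 10 border macrophage markers, 7 passed the filter and were called as higher, a count that the filter set in part: Cd163 and F13a1 had 0 counts and Ms4a7 at most 9 counts in a WT library, so they passed only through IRF8KO. The summed level of the 10 markers was 609 to 834 CPM in WT and 3707 to 4911 CPM in IRF8KO. Pf4, Ms4a7 and Cd163 were among those that rose, whereas Lyve1 had 0 counts in all 6 libraries, and Folr2 had at most 0.276 CPM and Clec10a at most 1.19 CPM in any library. Of 18 interferon-response genes, 17 were tested, 9 rose and none fell, with a median log2 fold change of 2.22 and summed levels of 283 to 333 CPM in WT and 789 to 922 CPM in IRF8KO. The summed level of 8 monocyte markers was 6.75 to 27.2 CPM in WT and 9.87 to 55.3 CPM in IRF8KO; 2 of them were tested and 1, Fn1, which passed the filter only through IRF8KO, rose, from 0.0696 ± 0.0689 to 3.10 ± 1.38 CPM (SD, n = 3; edgeR adjusted p = 0.0066). The part of these lists in the level of Siglec1 was not tested.

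Siglece, an inhibitory receptor of myeloid cells, was the other gene that rose. It had 118, 149 and 297 CPM in WT replicates 1, 2 and 3 and 554, 425 and 425 CPM in IRF8KO replicates 1, 2 and 3. The groups did not overlap, with WT replicate 3 nearest to the IRF8KO libraries. Mean levels (± SD, n = 3) of 188 ± 95.9 and 468 ± 74.6 CPM gave a log2 fold change of 1.32 (SE 0.37, edgeR adjusted p = 0.027, 95% interval 0.52 to 2.11). The call was lost in edgeR without WT replicate 1 (adjusted p = 0.0999), WT replicate 2 (0.113), IRF8KO replicate 1 (0.112) or IRF8KO replicate 3 (0.097), and without WT replicate 3 the log2 fold change was 1.84. Neutrophils also carry Siglece: the summed level of 8 neutrophil markers was 279 CPM in IRF8KO replicate 2, 2.41 and 2.06 CPM in IRF8KO replicates 1 and 3, and at most 0.142 CPM in WT. Without IRF8KO replicate 2 the Siglece log2 fold change was 1.39 (edgeR adjusted p = 0.046). The part of neutrophils in the level of Siglece was not tested.

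Siglecg, an inhibitory receptor best known from B cells that binds the CD24 protein, was the transcript that was lost. It had 71, 155 and 49 counts in WT replicates 1, 2 and 3 and 0 counts in all IRF8KO libraries. In CPM it was 13.81, 10.97 and 6.75 in WT, while the 0 counts allow up to 3 counts, or between 0.269 and 0.482 CPM, in an IRF8KO library. Against a floor of 3 counts over the 3 IRF8KO libraries, Siglecg was at least 91.9-fold lower (edgeR adjusted p = 2.9e-04; at most 0.0030 without any 1 library). The gene for its known partner, Cd24a, had 0 counts in 5 libraries and 10 counts in IRF8KO replicate 2.

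Cd22, the inhibitory co-receptor of the B-cell receptor, fell from a low level. It had 14.8, 15.0 and 24.8 CPM in WT replicates 1, 2 and 3 and 7.38, 7.90 and 3.80 CPM in IRF8KO replicates 1, 2 and 3. No IRF8KO library reached the lowest WT library. Mean levels (± SD, n = 3) of 18.2 ± 5.73 and 6.36 ± 2.23 CPM gave a log2 fold change of −1.52 (SE 0.45, edgeR adjusted p = 0.036, 95% interval −2.50 to −0.53). The edgeR call was lost without WT replicate 1, 2 or 3 (adjusted p = 0.061, 0.068 and 0.063) or IRF8KO replicate 1 or 3 (0.084 and 0.151). The exons of Cd22 overlap an antisense gene, Gm29439, over 9.50% of their length, and reads of the pair cannot be told apart by strand. In the column that ignores strand, which was used here, reads on the overlap count for neither gene. That column held 468 counts of Cd22 in WT and 169 in IRF8KO, while the strand columns held 383 and 437 over all libraries. Cd22 is thus undercounted here, also per kb and as a share.

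B-cell markers moved with Siglecg and Cd22 in part. Among 9 markers, Ms4a1, Pax5, Blk and Fcer2a had 0 counts in all 6 libraries, and Cd79a had at most 0.414 CPM. Both markers that could be tested, Ighm and Cd79b, fell, with log2 fold changes of −5.06 and −2.15 (edgeR adjusted p = 4.8e-06 and 7.2e-04). The summed level was 519 to 859 CPM in WT and 29.3 to 40.9 CPM in IRF8KO, nearly all of it from Ighm and Cd79b.

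Siglecf, an inhibitory receptor that marks eosinophils and the macrophages of lung air spaces, fell as well. It had 9.92, 15.4 and 6.20 CPM in WT replicates 1, 2 and 3 and 0.803, 3.59 and 2.60 CPM in IRF8KO replicates 1, 2 and 3. The groups did not overlap, but the highest IRF8KO library came within a factor of 2 of the lowest WT library. Mean levels (± SD, n = 3) of 10.5 ± 4.61 and 2.33 ± 1.41 CPM gave a log2 fold change of −2.14 (SE 0.62, edgeR adjusted p = 0.033, 95% interval −3.50 to −0.78). The edgeR call was lost without WT replicate 1 or 2 (adjusted p = 0.071 and 0.160) or IRF8KO replicate 1 or 3 (0.099 and 0.117), and with the counts of strand column 3 alone (log2 fold change −1.72, adjusted p = 0.086). Of 7 eosinophil markers, Prg2, Prg3, Ear1, Ear6 and Il5ra had 0 counts in all libraries, and the summed level of the list was at most 1.61 CPM in any library.

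Siglech, the Tyrobp-coupled receptor used as a microglial marker, was the most abundant of the 7 genes by CPM in every library. It had 1097, 1174 and 1390 CPM in WT replicates 1, 2 and 3 and 1090, 862 and 1077 CPM in IRF8KO replicates 1, 2 and 3. WT replicate 1 and IRF8KO replicate 1 were nearly level, although the groups did not overlap. Its log2 fold change of −0.27 (SE 0.30, 95% interval −0.92 to 0.37) did not pass the test (edgeR adjusted p = 0.557). Scaling by library size alone shifted the median of all genes from −0.11 to −0.61 and gave Siglech −0.78 (edgeR adjusted p = 0.0091). Relative to the median of each scaling, Siglech was at −0.16 under both. A change of scaling moves all genes nearly alike, so values relative to the median cannot show which scaling is right. Plasmacytoid dendritic cells, the other main source of Siglech, were represented by 8 markers, of which Ly6d, Klk1 and Dntt had 0 counts in all libraries. The summed level of that list, 17.4 to 42.6 CPM in WT and 110 to 121 CPM in IRF8KO, held the called rise of 1 gene, Cox6a2.

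Cd33 was the other abundant member that did not pass the test, and the only one whose groups overlapped. It had 281, 309 and 216 CPM in WT replicates 1, 2 and 3 and 449, 384 and 299 CPM in IRF8KO replicates 1, 2 and 3. IRF8KO replicate 3 lay below WT replicate 2. The log2 fold change was 0.49 (SE 0.29, edgeR adjusted p = 0.264, 95% interval −0.15 to 1.13). Scaling by library size alone turned its sign, to −0.062; relative to the median of all genes it was 0.60 under TMM and 0.55 under library size.

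**Figure D2:**
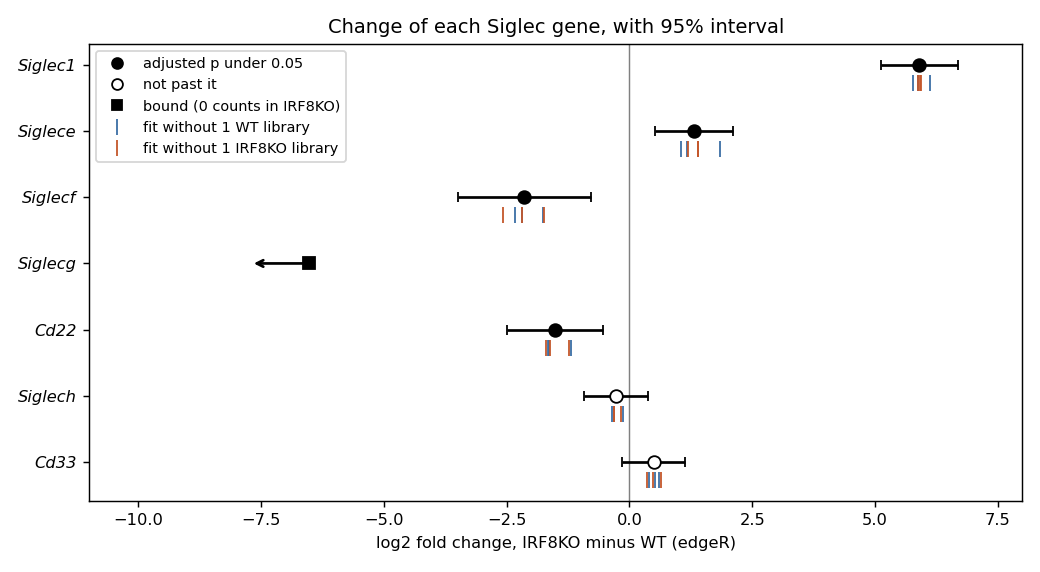
Log2 fold change of each Siglec gene (IRF8KO minus WT, edgeR, n = 3 per group) with its 95% interval; ticks give the fits without 1 library, and the square with an arrow is the bound of Siglecg, which had 0 counts in IRF8KO. The intervals of Siglec1, Siglece, Siglecf and Cd22 exclude 0, and those of Siglech and Cd33 include it.

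Levels were compared between the genes after division by exonic length. In WT, the mean level was 361 CPM per kb for Siglech, 102 for Siglece, 34.6 for Cd33, 3.76 for Siglecf, 3.61 for Cd22, 2.19 for Siglecg and 0.281 for Siglec1. Siglech was above Siglece and Siglece above Cd33 in each WT library, while Siglecf and Cd22 changed places, Siglecf being higher in WT replicates 1 and 2 and Cd22 in WT replicate 3. The Cd22 levels leave out the reads on the overlap with Gm29439, so its place beside Siglecf in WT is uncertain. In IRF8KO, the mean level was 298 CPM per kb for Siglech, 253 for Siglece, 48.6 for Cd33, 16.5 for Siglec1, 1.26 for Cd22 and 0.836 for Siglecf. Siglec1, the lowest of the 7 genes in each WT library, was thus the fourth in each IRF8KO library.

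The share of Siglech in the Siglec transcripts was lower in IRF8KO, and that of Siglece higher. Shares of the same pool depend on each other, so a rise of Siglece lowers the share of Siglech even where the level of Siglech does not change. Siglech made up 74.7%, 72.5% and 67.6% of the summed counts per kb of the 7 genes in WT replicates 1, 2 and 3 and 46.1%, 46.1% and 52.7% in IRF8KO replicates 1, 2 and 3. Siglece made up 14.7%, 16.8% and 26.4% in WT and 42.9%, 41.6% and 38.0% in IRF8KO, in the same order. The shares of the groups did not overlap for either gene, and Siglech stayed above Siglece in all 6 libraries. The share of Siglec1 was 0.0585% ± 0.0282 in WT and 2.68% ± 0.170 in IRF8KO, and that of Cd33 7.07% ± 2.173 and 7.86% ± 1.35 (SD, n = 3). The exact two-sided permutation test over the 6 libraries gave p = 0.1 for every gene but Cd33, the smallest p it can give with 3 against 3, and p = 0.7 for Cd33. Without division by length, the difference in share (IRF8KO minus WT) was 12.9 points in place of 21.5 for Siglece, −20.01 in place of −23.3 for Siglech and 5.85 in place of 2.62 for Siglec1. The summed level of the 7 genes was 507 ± 90.6 CPM per kb in WT and 619 ± 74.1 in IRF8KO (SD, n = 3; exact permutation p = 0.3).

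**Figure D3:**
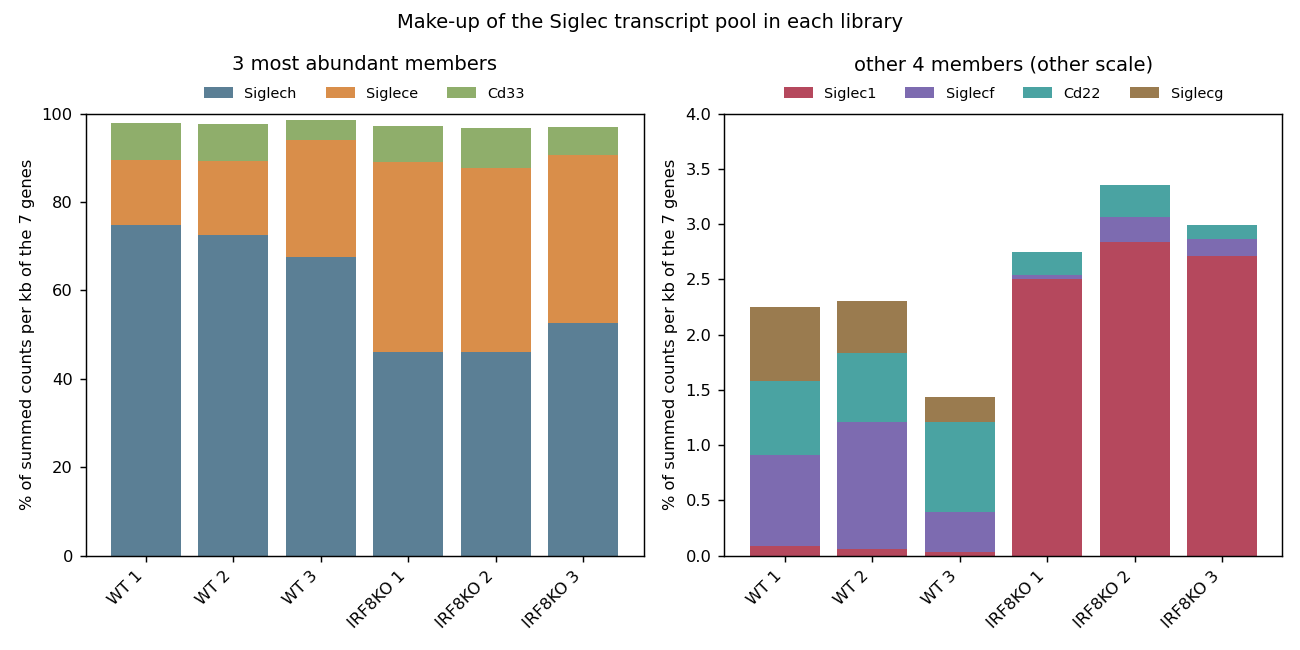
Share of each gene in the summed counts per kb of the 7 Siglec genes in each library, with the 3 abundant genes on the left (axis to 100%) and the other 4 on the right (axis to 4%). Siglech makes up 67.6% to 74.7% in WT and 46.1% to 52.7% in IRF8KO, and Siglec1 takes most of the right-hand bars in IRF8KO.

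Within the cluster on chromosome 7, the genes did not move in one direction. Siglecf and Siglecg, both on the plus strand, both fell, and Cd33 and Siglece, on the minus strand, had log2 fold changes of 0.49 and 1.32. Of all tested genes, 19.1% were called, 9.64% as higher and 9.46% as lower, and the neighbours below are too few to compare with these shares. Of the 6 other tested genes within the cluster and 100 kb on either side, 2 fell and none rose. These 2, named after their values were seen, were the zinc-finger gene Zfp715, at 18.4 ± 9.27 CPM in WT and 4.63 ± 3.29 in IRF8KO (edgeR adjusted p = 0.043), and Vsig10l, at 18.5 ± 0.983 and 5.45 ± 0.766 CPM (edgeR adjusted p = 0.0093). Around Siglec1, 2 of 4 tested neighbours rose, among them Adam33, a metalloprotease gene, from 1.94 ± 1.32 to 36.8 ± 6.79 CPM (SD, n = 3; edgeR adjusted p = 3.7e-04). None of the 3 tested neighbours of Cd22 was called, and the single tested neighbour of Siglech, Tubgcp5, fell from 50.5 ± 22.4 to 9.77 ± 2.69 CPM (edgeR adjusted p = 0.0020).

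**Figure D4:**
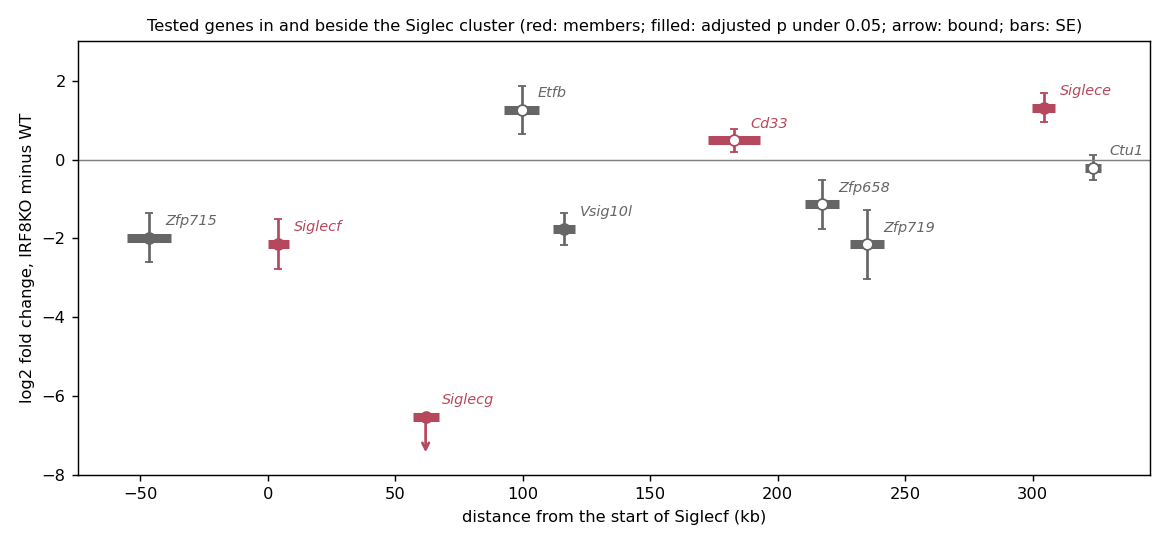
Log2 fold change (IRF8KO minus WT, edgeR; error bars, SE) of the tested genes in and beside the Siglec cluster of chromosome 7 against their distance in kb from the start of Siglecf; thick lines span each gene and the arrow marks the bound of Siglecg. Siglecf and Siglecg lie below 0, and Cd33 and Siglece above it, with Zfp715 and Vsig10l as the other filled points.

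The family has 2 further genes in these files. Mag, the myelin-associated Siglec of oligodendrocytes, had 75.1, 81.2 and 140.2 CPM in WT replicates 1, 2 and 3 and 70.9, 59.0 and 65.7 CPM in IRF8KO replicates 1, 2 and 3. The groups did not overlap, and the log2 fold change of −0.60 (SE 0.30) did not pass the test (edgeR adjusted p = 0.189), though it did with library size alone (edgeR adjusted p = 0.0061); relative to the median of all genes it was −0.49 under TMM and −0.44 under library size. Of 8 other oligodendrocyte markers, 5 were tested, none rose and 1 fell (Cnp, from 186 ± 79.8 to 45.2 ± 14.8 CPM; SD, n = 3; edgeR adjusted p = 0.0028). Their summed level was 204 to 560 CPM in WT and 419 to 623 CPM in IRF8KO, most of it from Mbp (152 ± 116 and 437 ± 95.2 CPM, edgeR adjusted p = 0.056) and Cnp. The defining marker Mog had 0 counts in 4 libraries and at most 1.79 CPM, and the part of these markers in the level of Mag was not tested. Siglec15 had 0 counts in all 6 libraries.

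The 6 lists of pathway genes held 55 genes, of which 38 were tested, 5 rose and 6 fell. That is 28.9% of those tested, against 19.1% of all tested genes, and their median log2 fold change was −0.36. Leaving out 1 library moved both counts by over 1.5 times, to between 4 (without IRF8KO replicate 3) and 20 (without WT replicate 3) pathway calls and between 910 and 4003 calls over all genes, in the same order.

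Signalling partners moved in both directions: of 12 tested genes, 3 rose and 2 fell. Tyrobp, which encodes the adaptor of Siglech, had 1401, 1861 and 3409 CPM in WT replicates 1, 2 and 3 and 7641, 5543 and 7731 CPM in IRF8KO replicates 1, 2 and 3. All IRF8KO libraries were above all WT libraries (log2 fold change 1.65, SE 0.41, edgeR adjusted p = 0.016). Hcst, which encodes the related adaptor DAP10, rose from 15.5 ± 8.14 to 110 ± 17.2 CPM (SD, n = 3; edgeR adjusted p = 4.2e-04). The inhibitory phosphatases differed among themselves: Ptpn11 rose from 9.39 ± 1.45 to 28.15 ± 6.44 CPM (edgeR adjusted p = 0.0094), while the far more abundant Ptpn6 (651 ± 183 and 513 ± 41.1 CPM) and Inpp5d (1318 ± 338 and 1003 ± 144 CPM) did not pass the test (edgeR adjusted p = 0.464 and 0.417). With library size alone, edgeR called Ptpn6 and Inpp5d as lower, with log2 fold changes of −0.81 and −0.87 (adjusted p = 0.0071 and 0.0034). Relative to the median of all genes, they were at −0.23 and −0.28 under TMM and −0.19 and −0.26 under library size. Of the tyrosine kinases, Fyn and Lyn fell, with log2 fold changes of −3.40 and −1.41 (edgeR adjusted p = 0.0010 and 0.013), and Syk did not pass the test (adjusted p = 0.853). The edgeR calls of Hcst and Fyn held without any 1 library. Fyn, at 11, 15 and 8 counts in IRF8KO replicates 1, 2 and 3, passed the filter on low counts only through WT. The call of Tyrobp was lost without WT replicate 1 or 2 (adjusted p = 0.068 and 0.082) or IRF8KO replicate 1 or 3 (0.065 and 0.098). That of Lyn was lost without WT replicate 2 or IRF8KO replicate 1 or 3 (adjusted p = 0.053, 0.079 and 0.104), and that of Ptpn11 without IRF8KO replicate 3 (0.070) and with library size alone (0.110).

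The sialyltransferases, which attach the sugars that Siglecs bind, were the other list with several calls: of 20 genes, 11 were tested, 2 rose and 3 fell. St6galnac4, which adds sialic acid to short mucin-type chains, had 386, 508 and 897 CPM in WT replicates 1, 2 and 3 and 201, 140 and 132 CPM in IRF8KO replicates 1, 2 and 3 (log2 fold change −1.92, SE 0.37, edgeR adjusted p = 0.0039). No IRF8KO library reached the WT range. St3gal5, the enzyme that makes the ganglioside GM3, fell from 100.5 ± 43.2 to 26.98 ± 5.13 CPM, and St3gal2 fell from 131 ± 18.2 to 46.2 ± 18.6 CPM (SD, n = 3; edgeR adjusted p = 0.0042 and 0.0088). St3gal3 rose from 43.1 ± 15.1 to 118 ± 32.8 CPM (edgeR adjusted p = 0.0096). The second gene that rose, St3gal1, was outside the rule for named genes and went from 1.79 ± 0.813 to 11.1 ± 7.04 CPM (edgeR adjusted p = 0.015). St6gal1, which makes the linkage that CD22 prefers, had 39.0 ± 3.58 CPM in WT and 67.1 ± 6.55 CPM in IRF8KO with no overlap, and St3gal6 had 97.9 ± 42.7 and 46.0 ± 12.7 CPM; neither passed the test (edgeR adjusted p = 0.056 and 0.060). St6gal1 was called as higher in 7 of 16 alternatives and St3gal6 as lower in 6 of 16 (adjusted p = 0.035 and 0.037 in DESeq2), while with library size alone the log2 fold change of St6gal1 was 0.29 (edgeR adjusted p = 0.419). The edgeR call of St3gal5 held without any 1 library. The calls of St6galnac4, St3gal2 and St3gal3 were lost without IRF8KO replicate 3 (adjusted p = 0.051, 0.063 and 0.075), that of St3gal3 also without WT replicate 2 (0.055), and that of St3gal1 without WT replicate 2 or IRF8KO replicate 1 (0.064 and 0.093) and with library size alone (0.058).

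**Figure D5:**
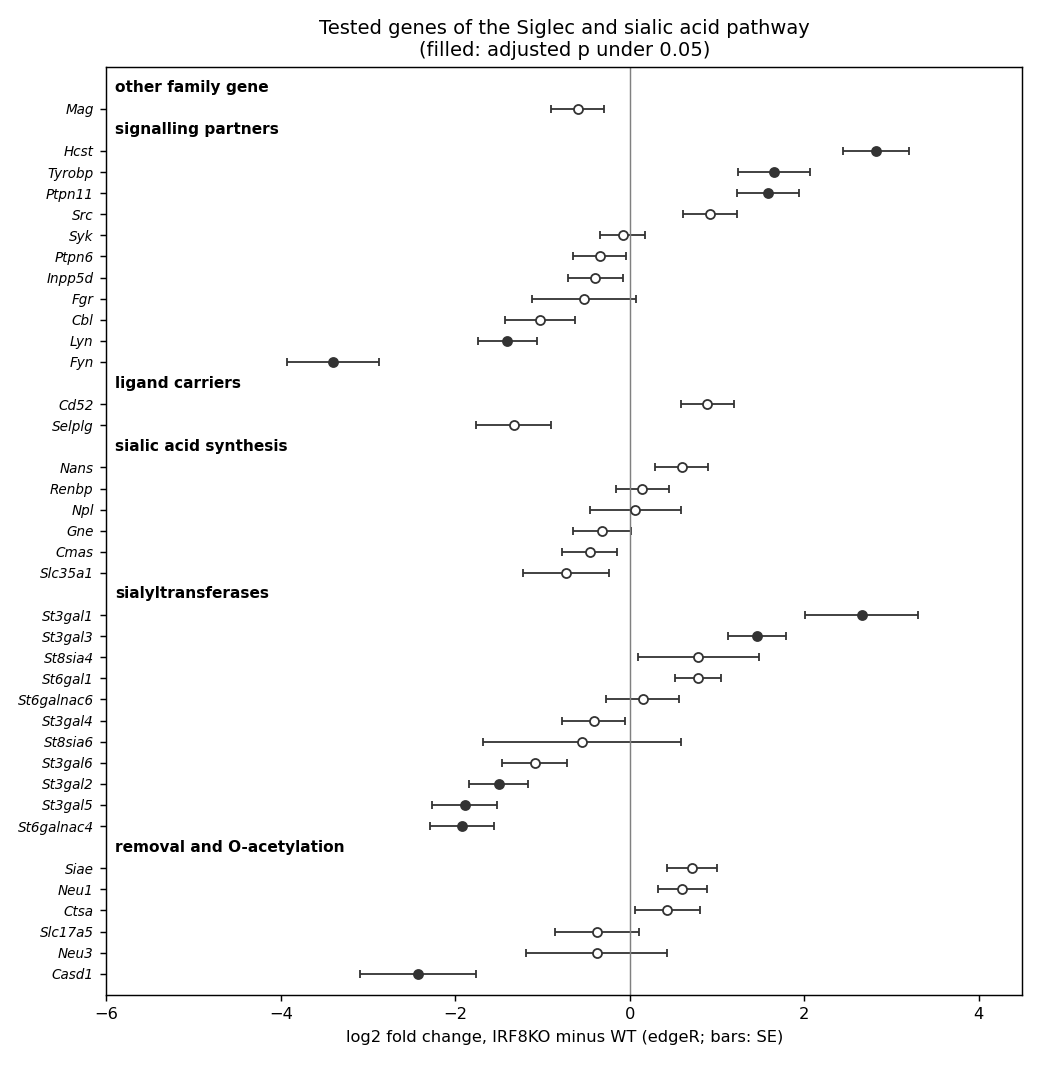
Log2 fold change (IRF8KO minus WT, edgeR; bars, SE) of the tested genes of the 6 pathway lists except 1 that is not reported here, grouped by role; filled points have an adjusted p under 0.05. Hcst, Tyrobp, Ptpn11, St3gal1 and St3gal3 are the filled points above 0, and Fyn, Lyn, St3gal2, St3gal5, St6galnac4 and Casd1 those below it.

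Genes that make sialic acid showed no call among 6 tested of 8. Gne, the key enzyme of sialic acid synthesis, had 57.1 ± 22.4 CPM in WT and 45.8 ± 9.08 CPM in IRF8KO, and Nans had 39.0 ± 8.89 and 59.0 ± 14.4 CPM (SD, n = 3; edgeR adjusted p = 0.533 and 0.198). With library size alone, Gne was at the threshold, with a log2 fold change of −0.77 (edgeR adjusted p = 0.04998). Relative to the median of all genes, it was at −0.21 under TMM and −0.16 under library size. Renbp had 244 ± 73.8 and 270 ± 44.3 CPM (edgeR adjusted p = 0.777). Of the 8 genes for removal and modification of sialic acid, 6 were tested and 1 fell: Casd1, which O-acetylates sialic acid, went from 17.2 ± 9.64 to 3.13 ± 2.52 CPM (edgeR adjusted p = 0.025). Its edgeR call was lost without WT replicate 1 or 2 (adjusted p = 0.087 and 0.071) or IRF8KO replicate 1 or 3 (0.104 and 0.122). The lysosomal sialidase Neu1 had 125 ± 25.2 and 190 ± 26.1 CPM with no overlap, and its partner Ctsa had 3575 ± 1273 and 4813 ± 976 CPM, neither past the test (edgeR adjusted p = 0.153 and 0.454). Without WT replicate 3, edgeR called both as higher, with log2 fold changes of 0.75 and 0.79 (adjusted p = 0.020 and 0.014).

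Among 5 proteins known to carry Siglec ligands, 2 had enough counts to test and neither passed. Selplg, a heavily sialylated mucin-like protein, was very abundant, at 9087, 10358 and 21624 CPM in WT replicates 1, 2 and 3 and 6321, 4359 and 5621 CPM in IRF8KO replicates 1, 2 and 3. The groups did not overlap, and the log2 fold change of −1.33 (SE 0.43) had an edgeR adjusted p of 0.0502, just above the threshold. Of 16 alternatives, 8 called Selplg as lower (adjusted p = 0.0038 in DESeq2 and 0.031 in limma-voom), and without WT replicate 3 its log2 fold change was −0.81 (edgeR adjusted p = 0.012). Cd52 had 68.7 ± 19.8 and 127 ± 24.8 CPM (SD, n = 3; edgeR adjusted p = 0.058), and 7 of the 16 alternatives called it as higher (adjusted p = 0.036 in DESeq2).

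Genes with the most similar pattern to each member were sought among 7602 tested genes by the root-mean-square difference of centred log2 CPM over the 6 libraries, with a prior count of 2 that sets how far a library at 0 counts lies from the others. Siglec1 was nearest to Cst7, Rara and Plekhg3 (0.41, 0.41 and 0.42), all called as higher in IRF8KO; Rara and Plekhg3 had 0 CPM in WT, so their distance from Siglec1 depends on the prior count, as do the distances from Siglecg, which was at 0 in IRF8KO. Siglecg was nearest to Plxdc2, Tom1l1 and Naaa (0.23, 0.41 and 0.41), all called as lower. Siglece was nearest to Pmf1, Tmbim1 and Pqlc1 (0.11 each), Siglecf to Fam45a, Mgat4a and Copb1 (0.12, 0.19 and 0.20), and Cd22 to Ripk3, Lrrc20 and the sialyltransferase gene St3gal2 (0.10, 0.20 and 0.21). Siglech was nearest to Ncf1, Mark2 and Gltp (0.04 each) and Cd33 to Smpdl3a, Entr1 and Pip5k1a (0.09, 0.10 and 0.10), none of them called. These differences describe likeness in 6 libraries of 2 genotypes only.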

How the data were processed

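Counts of reads per gene were deposited by the authors as 1 raw count table per library, in the layout of STAR's gene counts; the submitters' processing notes name STAR 2.5.2b, Picard 2.17.11, featureCounts and the build mm10, and the annotation release is not given in the sources used here. The column that ignores strand was used (own-strand shares were 49.8% to 50.3%), the 4 summary lines were left out, and 49326 of 49585 gene identifiers matched GENCODE M21. Reads outside genes made up 2.44% to 7.70% and reads on several genes 8.20% to 10.8% of uniquely mapped reads. At most 7.84% of the 50-base words in a member's transcripts occur in another gene.

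edgeR 4.0.16 in R 4.3.3 was used with its default filter (minimum count 10), TMM and genotype as the single term; standard errors were derived from the F statistic, and log2 CPM had a prior count of 2. On simulated data for this comparison over 11041 genes, of which 200 were changed, the test recovered 5.97%, 49.3% and 84.8% of 2-fold, 4-fold and 8-fold changes. In the data, 19.1% of tested genes were called, a larger share than was changed in the simulation, so recovery in the data may differ. Alternatives were DESeq2 1.42.0, limma-voom (limma 3.58.1), other scalings, filters and strand columns, each library left out, and a replicate block. The members and gene lists were chosen with earlier results of these data known. Named were the members, Mag and Siglec15, the 4 smallest p-values among called genes of each list, list genes with at least 50 CPM in a group, and the 3 most similar genes per member with at least 5 CPM and no predicted-gene name. A few list genes are not reported here. P-values measure the spread between these mice, which edgeR moderates for each gene by the spread of other genes. The floor of 3 counts covers counting error only.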

Additional observations from a re-analysis of the deposited data

How the results depend on the processing

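Across all genes, 2109 were called, and between 910 and 4003 when 1 library was left out (4003 without WT replicate 3); 1064 were higher and 1045 lower, against 651 and 1908 with library size alone. The 5 calls among the Siglec genes became 2 to 5 without 1 library, and 3 with at least 10 counts in every library, a filter that removes Siglecf and Siglecg from the test; strand column 3 alone gave 4. The 11 pathway calls became 4 to 20 without 1 library and 17 with DESeq2. The replicate block gave 2353 calls over all genes, 5 Siglec genes and 13 pathway genes; correlations of the deviations of same-numbered libraries were −0.26, 0.33 and 0.11, so the numbers were not taken as pairs. Direction turned for Cd33 (−0.062), Renbp (−0.33) and Ctsa (−0.044) with library size alone and for Gne without WT replicate 3 (0.077; −0.53 to 0.077 without any 1 library); none of these was called. Relative to the median of all genes, library size alone turned none of the first 3: Cd33 was 0.60 and 0.55, Renbp 0.25 and 0.29 and Ctsa 0.54 and 0.57 under TMM and library size. Such relative values change little with the scaling, so they cannot show which scaling is right. Without division by length, the difference in share was 5.85 points for Siglec1 (main 2.62), 12.9 for Siglece (21.5), −0.722 for Cd22 (−0.497) and 3.09 for Cd33 (0.786). The Cd22 share difference was −0.649 and −0.615 with either strand column, which hold Cd22 reads that the column without strand leaves out at Gm29439. The Cd33 share difference lay between −0.468 (without WT replicate 3) and 1.54 without 1 library. The cause of these shifts was not tested. Siglecf, Siglecg and Cd22 had at most 217 counts in a library. In the simulated data, 5.97% of 2-fold changes were recovered over genes of all depths; recovery was not split by depth.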
